A study of Mus musculus with 2 samples.

Results

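Integrins are cell surface receptors made of 1 alpha and 1 beta subunit, and laminins are basement membrane proteins made of 1 alpha, 1 beta and 1 gamma chain. The genes described here are those whose array name begins with Itga or Itgb, or is Lama, Lamb or Lamc with a digit, with 1 gene that matches this rule left out. They are 41 of the 31791 genes named on the arrays, with 54 probes among them. By role they are 17 integrin alpha subunits, 9 integrin beta subunits, 10 laminin chains (alpha, beta or gamma), and 5 other proteins that carry an integrin's name. The names came from the array design and not from measured values.

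The RNA was total RNA of ureters dissected from NMRI mouse embryos at stage E18.5 (E for embryonic day). Embryos labelled cDKO were Tbx18 cre/+, homozygous for a floxed allele of Tbx2 (fl/fl) and likewise fl/fl at Tbx3, so that a Cre recombinase expressed from the Tbx18 locus meets floxed alleles of both T-box transcription factor genes. Controls were Tbx18 +/+ and had the genotype fl/? at Tbx2 and at Tbx3, so they carried floxed alleles too but no Cre, while the cDKO embryos also had only 1 intact Tbx18 allele. Tbx18 marks the mesenchyme around the ureter, and cells outside that lineage are not targeted by the Cre. Each of 2 Agilent arrays held both RNAs. The first array held male RNA with the cDKO sample in the red dye, and the second held female RNA with the cDKO sample in the green dye, so sex, dye orientation and replicate number cannot be told apart. The number of embryos behind an RNA, and whether the RNAs came from separate pools, is not given in the sources used here. The p-values therefore rest only on spread between these 2 arrays, which may be technical. That spread is mostly pooled over probes, so it is not mainly that of the single gene.

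Integrins bind matrix proteins or other cells outside and, through talin, kindlin and the ILK complex, the actin cytoskeleton inside. In a hollow organ such as the ureter, laminins form the sheet beneath the epithelium (the urothelium) and the basement membrane that surrounds each smooth muscle cell and blood vessel. Beta1 is the common partner of most alpha subunits, while alpha6 with beta4 anchors basal epithelial cells in hemidesmosomes.

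Depth on an array is brightness over background. Median signal over background lay between 12.1 and 17.0 in the 4 dye channels, and between 71.2% and 80.9% of gene probes were well above background. The sex labels were checked with Xist, the RNA of the inactive X chromosome, and 2 Y-linked genes. Xist read 3673 and 3571 normalised intensity units in the female cDKO and control RNAs and was not well above background in the male RNAs (182 and 172), as the labels have it. The RNA labelled female cDKO also held Y-linked signal: Ddx3y and Eif2s3y read 1384 and 1706 in it, below the 7787 to 11213 and 13703 to 16740 of the male RNAs, whereas in the female control RNA neither was well above background (79.3 and 140). Because of this, most ratios and list medians below are given for each array, the male before the female where a pair of values stands alone, and a mean ± SD is over both. Tbx2 and Tbx3, the targeted genes, were higher in the RNA labelled cDKO, with mean log2 ratios of 0.74 ± 0.42 and 0.66 ± 0.16 (SD, n = 2 arrays), but whether their probes lie in the deleted stretches is not given in the sources used here, so they do not check the labels. On the male and female arrays they read 1.03 and 0.44 (Tbx2) and 0.78 and 0.55 (Tbx3), and Tbx18 itself read 0.81 and 0.81.

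A gene's ratio is log2 of cDKO over control from its brightest probe, and a gene is called when limma's adjusted p (Benjamini-Hochberg over all kept probes) is under 0.05. Of the 41 genes, 34 were tested, and all 34 were well above background in all 4 RNAs. The other 7 were too dim to test. These were Itga2 (a collagen receptor subunit), the leukocyte subunits Itgad, Itgae, Itgax and Itgb2l, Itgb8 (a partner of alphaV that binds latent TGF-beta), and Itgb1bp3, which RefSeq names Nmrk2 and which is an enzyme of NAD synthesis. Of the 34, 4 were called: 1 was higher in the RNA labelled cDKO (Lama1) and 3 were lower (Lamc3, Itga10 and Itga4). Over all 23345 genes tested, 4.45% were called, 2.18% higher (510 genes) and 2.27% lower (530 genes). The processed signals of the scanner software gave 134 higher and 210 lower calls instead, and a variance trend with intensity gave 931 higher and 663 lower.

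Most of the integrin and laminin genes tested were not called. Their median log2 ratio was -0.08 (male -0.11, female 0.0067), beside 0.0047 for all genes tested, and with median centring in place of loess it was 0.10 (all genes 0.07), so the family as a whole has no settled direction. Signs differed between the male and the female array for 12 of the 34, against 40.3% of all genes. Above 0 on both arrays were 10 members (all genes 31.7%), and below 0 on both were 12 (all genes 28%). At an unadjusted p under 0.05 there were 10 members, against 16% of all genes.

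**Figure D1:**
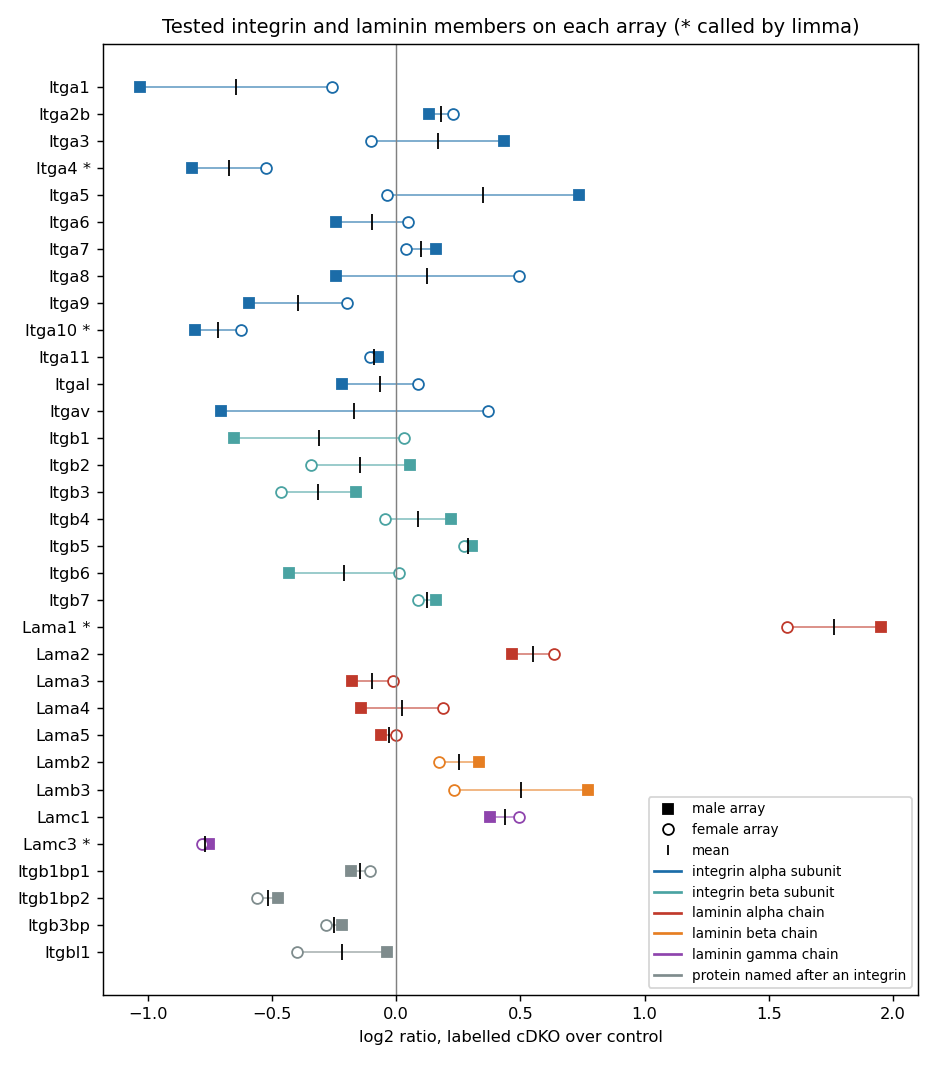
Log2 ratio of labelled cDKO over control (x axis) for 33 of the 34 tested genes (y axis), with a square for the male array, a circle for the female array, a tick for their mean and a star at called genes. Lama1 lies far to the right on both arrays at 1.95 and 1.57, while Lamc3, Itga10 and Itga4 lie to the left on both.

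Among the integrin alpha subunits, 2 of the 13 tested were called lower (Itga10 and Itga4) and 0 higher (all genes 2.27% and 2.18%). Itga10 encodes the collagen receptor subunit alpha10, known from cartilage. Its probe at chr3:96468377-96468436 (mm9, plus strand) read 4363 in the male cDKO RNA and 7643 in the male control, 4642 in the female cDKO and 7154 in the female control. On each array the cDKO value was the lower one, which held for 28% of all genes tested. This adds no support to the call, which rests on the mean of the same ratios. The log2 ratio was -0.81 for the males and -0.62 for the females, a mean of -0.72 ± 0.13 (SD, n = 2), or 1.64-fold lower (limma adjusted p = 0.0190). Another probe, which overlaps it almost fully, gave -0.72 ± 0.23 (limma adjusted p = 0.0206). In bulk RNA, fewer cells of a type and less RNA per cell cannot be told apart, here and for every gene below.

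Itga4 encodes alpha4, which with beta1 binds the adhesion protein VCAM1 and fibronectin and is found on leukocytes and on mesenchyme. Its brightest probe, at chr2:79173193-79173252 (mm9, plus strand), read 8401 in male cDKO against 14849 in male control, and 10472 in female cDKO against 15035 in female control. The cDKO value was again the lower one on both arrays, as for 28% of all genes, and the call again rests on these same ratios. The ratios of -0.82 and -0.52 gave a mean of -0.67 ± 0.21 (SD, n = 2), or 1.59-fold lower (limma adjusted p = 0.0310). A much dimmer probe across an exon junction read 239 and 348 in the male RNAs and 220 and 292 in the female RNAs, with a mean ratio of -0.47 ± 0.094 that was not called (limma adjusted p = 0.144). The processed signals took away the Itga4 and Itga10 calls (adjusted p 0.222 and 0.199), as did median centring (both 1.00) and the deposited value table (0.415 and 0.380). Itga4 was also lost with a normexp offset of 0 (0.0580) and with no filter on dim probes (0.0508).

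The Itga1 gene, for the collagen receptor subunit alpha1 of smooth muscle and mesenchyme, depended on the probe read. Its brightest probe gave 3991 in male cDKO and 8149 in male control, but 5356 and 6403 in the female RNAs. The male ratio of -1.03 and the female ratio of -0.26 averaged -0.64 ± 0.55 (SD, n = 2) and were not called (limma adjusted p = 0.0796). The other probe read 1254 and 3368 in the male RNAs and 1468 and 2213 in the female RNAs, with ratios of -1.43 and -0.59, a mean of -1.01 ± 0.59 that was called lower (limma adjusted p = 0.00572). Both probes read below 0 on both arrays, as did 28% of all genes tested on their brightest probe. The probes are shown because they read separate exon junctions of the transcript: the brighter one spans chr13:115756765-115758419 and the dimmer one chr13:115821387-115825525 (mm9, minus strand), so each 60-base sequence is split over 1655 and 4139 bases of genome. They are printed without capitals, since the tail motif marked in a beta1 probe further on was not found in them.
Itga1 probe, brighter: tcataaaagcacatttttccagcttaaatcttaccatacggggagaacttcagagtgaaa
Itga1 probe, dimmer: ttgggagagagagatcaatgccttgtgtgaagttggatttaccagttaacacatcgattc
Each holds 1 reading frame free of stop codons. With the mean of a gene's kept probes, Itga1 was called (-0.83, limma adjusted p = 0.00997), as it was with the filter on both channels (0.0399) and with an intensity trend in the variance (0.0230).

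All 3 tested collagen-binding subunits were below 0 on both arrays (all genes 28%), with a median of -0.64 (male -0.81, female -0.26). The remaining one, Itga11 (a collagen receptor subunit of fibroblasts), read -0.07 and -0.10, a mean of -0.09 ± 0.022, and was not called. Itga9, a relative of alpha4 that binds tenascin and VCAM1, read 10341 and 15585 in the male RNAs and 9147 and 10504 in the female RNAs. Its ratios of -0.59 and -0.20, a mean of -0.40 ± 0.28, were not called (limma adjusted p = 0.269).

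None of the 3 laminin-binding alpha subunits was called by limma, and 0 had an unadjusted p under 0.05. Itga3, found in epithelia, read 0.44 in the male and -0.10 in the female RNAs. For Itga6, the hemidesmosome subunit, the values were -0.24 and 0.05, and Itga7, the laminin receptor of muscle, read 0.16 and 0.04. The 4 subunits that bind the RGD motif of fibronectin and related ligands gave no call by limma either, again with 0 at an unadjusted p under 0.05. Itga5, the fibronectin receptor subunit, was 0.73 on the male array, where its intensity was 1573 against 946, but -0.04 on the female array, at 1230 against 1261. Itgav showed the widest gap among the members, -0.70 and 0.37, with 4236 against 6900 in the male RNAs and 5764 against 4463 in the female RNAs. A dimmer Itgav probe gave -0.09 and 0.13. Itga8, the nephronectin receptor subunit of smooth muscle and kidney mesenchyme, read -0.24 and 0.49. Itga2b, the platelet subunit, read 0.13 and 0.23. Of the 4 leukocyte subunits, only Itgal was bright enough to test, at -0.22 and 0.09.

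**Figure D2:**
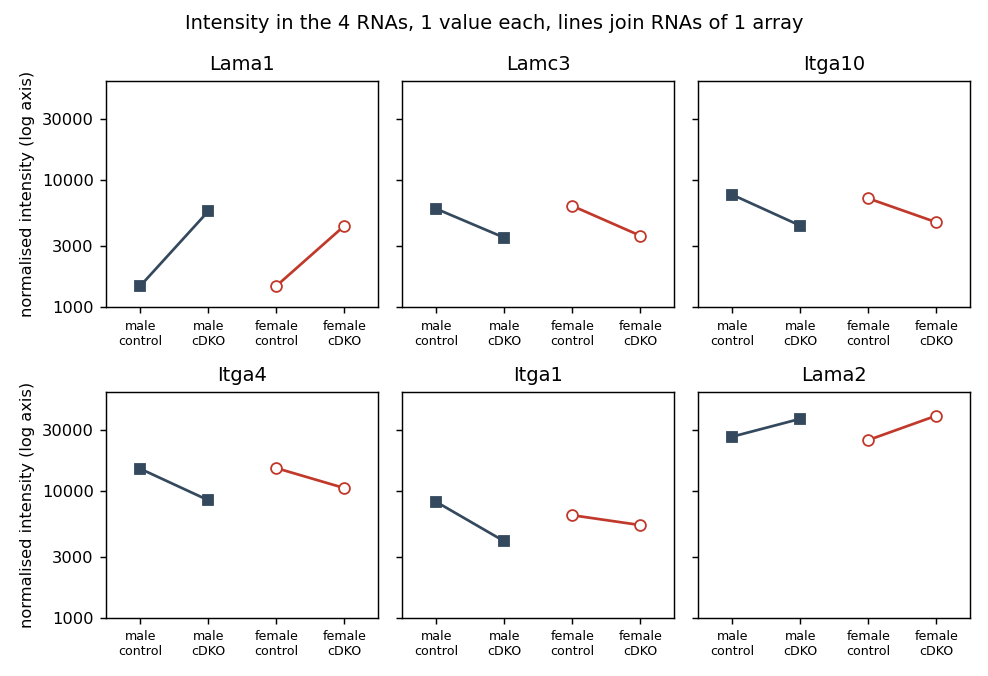
Normalised intensity (y axis, log scale) of the brightest probe of 6 genes, 1 panel each, in the 4 RNAs, with a line between the RNAs of 1 array (male squares, female circles). Within each array the cDKO point of Lama1 and Lama2 lies above the control point, and that of Lamc3, Itga10, Itga4 and Itga1 below it. Levels are not comparable between panels, since probes differ in brightness.

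No beta subunit was called by limma (0 of 7 tested, with 0 at an unadjusted p under 0.05). Itgb1, the partner of most alpha subunits above, was read by 2 probes. The brighter one gave 60039 in male cDKO against 94412 in male control, but 68382 against 66967 in the female RNAs, so the female control lay below the female cDKO value. The mean was -0.31 ± 0.48 (limma adjusted p = 0.469). The other Itgb1 probe read 13097 against 19269 and 12078 against 15496, with ratios of -0.56 and -0.36 and a mean of -0.46 ± 0.14 (limma adjusted p = 0.164). On both probes the male ratio was the lower one, and the probes differed in sign on the female array.

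The Itgb1 probes are printed since their values part on the female array. The brighter one spans chr8:131250081-131255976 (mm9, plus strand), a junction near the end of the coding sequence, and its capitals mark the codons for 2 stretches of the form Asn-Pro-x-Tyr, the cytoplasmic tail motif to which talin and kindlin bind. The dimmer one lies within 1 genomic block at chr8:131246349-131246408.
Itgb1 probe, brighter: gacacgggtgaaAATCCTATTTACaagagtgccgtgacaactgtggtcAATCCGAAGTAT
Itgb1 probe, dimmer: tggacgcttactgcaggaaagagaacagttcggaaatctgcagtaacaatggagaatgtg
The brighter probe thus reads the transcript where the tail is encoded, and the dimmer one reads sequence upstream of it.

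The other beta subunits varied less. Itgb5, an alphaV partner that binds vitronectin, was above 0 on both arrays, at 34075 against 27596 in the male and 33183 against 27473 in the female RNAs, but its mean of 0.29 ± 0.023 was not called (limma adjusted p = 0.438). Itgb3, also an alphaV partner and the platelet beta subunit, read -0.16 and -0.46, while a much dimmer probe read 0.25 and -0.29. Itgb4, the partner of alpha6 in hemidesmosomes, read 0.22 and -0.05, and the epithelial Itgb6 read -0.43 and 0.01. Another Itgb6 probe of similar brightness read -0.39 and -0.18. Of the leukocyte beta subunits, Itgb2 read 0.06 and -0.34, and Itgb7, an alternative partner of alpha4, read 0.16 and 0.09.

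Laminin chains carried the largest difference of the family. Lama1 encodes alpha1, the laminin chain of the early embryo and of kidney tubule basement membranes. Its probe at chr17:68171924-68171983 (mm9, plus strand) read 5680 in male cDKO and 1467 in male control, and 4360 in female cDKO and 1466 in female control. On each array the cDKO value stood well above its control. The log2 ratios of 1.95 and 1.57 gave a mean of 1.76 ± 0.27 (SD, n = 2), or 3.39-fold higher (limma adjusted p = 7.34e-06). It was the 1 member at least 2-fold higher on both arrays, against 0.411% of all genes, while 0 members were at least 2-fold lower on both, against 0.728%. Of the 10 alternative settings with a test, only the deposited value table took the call away, at an adjusted p of 0.212 with a ratio of 1.89.

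Some markers of the kidney, which lies next to the ureter at dissection, were higher as Lama1 was, and others differed between the arrays. Of 12 kidney markers, 10 were tested. Higher calls numbered 6, against 2.18% of all genes, and included Pax8, Lhx1, Six2, Cdh16 and Slc34a1. None was called lower, and the markers had medians of 1.29 (male array) and 0.86 (female array). Their summed intensity was 43424 and 27221 in the male and female cDKO RNAs, and 19482 and 25429 in the controls. No kidney marker was below background in all 4 RNAs. Signs differed between the arrays for 4 of the 10 tested (all genes 40.3%). These were Wt1 (0.85 and -0.26), Cited1 (0.73 and -0.48), Cdh6 (0.08 and -0.11) and Pax2, the gene for a transcription factor of the kidney epithelium (0.25 and -0.18, a dim probe). The part of kidney RNA in the Lama1 ratio was not tested.

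Lamc3, for the laminin chain gamma3, was the laminin gene called lower. Its probe at chr2:31801996-31802055 (mm9, plus strand) read 3512 in male cDKO against 5924 in male control, and 3635 in female cDKO against 6244 in female control. The ratios of -0.75 and -0.78 lay close together, and their mean of -0.77 ± 0.018 (SD, n = 2) was 1.70-fold lower (limma adjusted p = 0.0109). It was no longer called with processed signals (adjusted p = 0.158), median centring (1.00) and the deposited value table (0.330), where the ratio was -0.76, -0.59 and -0.76.

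Lama2, Lamc1 and Lamb1 were above 0 on both arrays (all genes 31.7%) without being called. Lama2, the alpha2 chain of muscle and nerve basement membranes, read 36751 against 26602 in the male RNAs and 38907 against 25018 in the female RNAs. Its mean of 0.55 ± 0.12 was just outside the threshold (limma adjusted p = 0.0805), and a neighbouring probe gave 0.48 on each array. Lamc1, the gamma1 chain shared by most laminins, read 105813 against 81329 and 107912 against 76555, a mean of 0.44 ± 0.082 (limma adjusted p = 0.184), but with median centring its female ratio was -0.10. Lamb1, the beta1 chain, is named Lamb1-1 on the array and so fell outside the rule. It read 101693 against 66736 and 99290 against 69968, a mean of 0.56 ± 0.073 (limma adjusted p = 0.0757). With a variance trend on intensity, Lama2 was called as well (adjusted p = 0.0125).

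Lama4, the vessel chain alpha4, read -0.14 and 0.19, and Lama5, the alpha5 chain of mature epithelial basement membranes, read -0.06 and 0.00036. The beta2 chain Lamb2 read 0.33 and 0.17. Lama3 and Lamb3, the alpha3 and beta3 chains of basal epithelia, were not called: Lama3 read -0.18 and -0.01, and Lamb3 read 0.77 and 0.23. The mean of Lamb3 was 0.50 ± 0.38 (limma adjusted p = 0.154), with 10553 against 6174 in the male and 7866 against 6701 in the female RNAs. Over the 10 laminin chains the median was 0.22 (male 0.32, female 0.18), and over the 20 tested integrin subunits it was -0.09 (male -0.19, female -0.01). These medians are descriptions of the lists, and the difference between them was not tested.

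**Figure D3:**
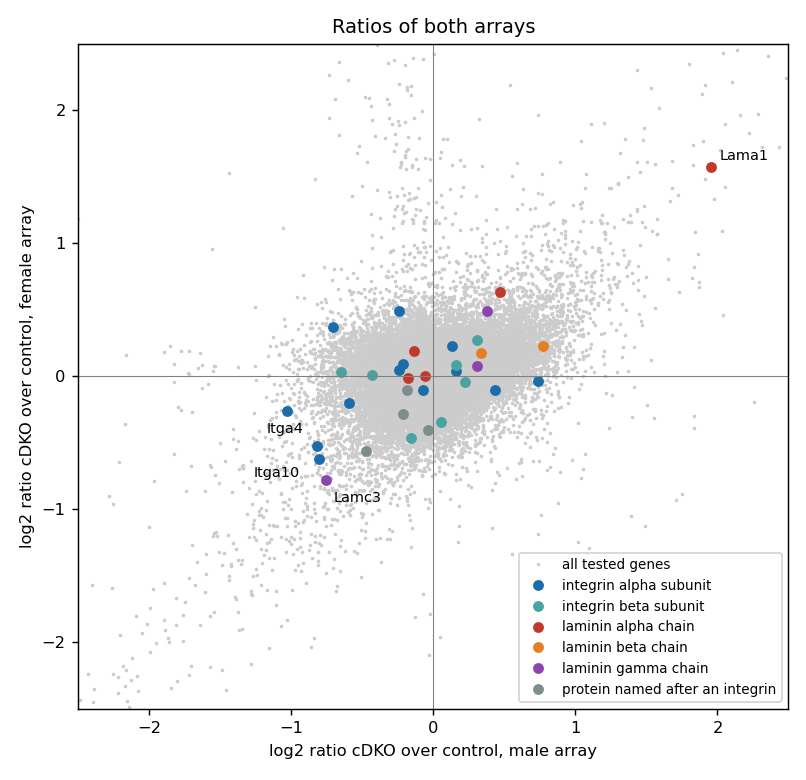
Log2 ratio of labelled cDKO over control on the male array (x axis) against the female array (y axis), for 23254 tested genes in grey and the members in colour, with 91 genes beyond the axis limit of 2.5. Lama1 stands apart in the upper right, Lamc3, Itga10 and Itga4 in the lower left, and 12 members lie in the quadrants where the signs differ.

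Of the 5 proteins that carry an integrin's name, 4 were tested, 0 were called by limma and 1 had an unadjusted p under 0.05 (all genes 16%). That was Itgb1bp2 (melusin, a muscle protein that binds the beta1 tail), which read 379 against 528 in the male and 292 against 431 in the female RNAs, a mean of -0.52 ± 0.058 (limma adjusted p = 0.103). Itgb1bp1, which also binds the beta1 tail, read -0.18 and -0.11 on its brighter probe and 0.33 and 0.58 on a dimmer one. Itgb3bp, a centromere protein, read -0.22 and -0.28, and Itgbl1, a secreted protein related to beta subunits, read -0.04 and -0.40. Across the family, 12 genes had 2 tested probes, and for 9 of them the mean ratios of both probes had the same sign. On a single array the probes of some of these 9 still differed in sign, as for Itgb1 and Itgb3.

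Promoter sequence is shown for both integrin genes called lower, to set side by side what precedes their starts, and for Lama2, which holds a muscle motif. RefSeq's table of promoters (GRCm38.p6) matched 26 of the 41 genes with 29 entries, and the 250 bases before each start were searched on both strands. The T-box site core GGTGTGA was found in 1 of the 29 (Itga4), and in 3.33% of all 32851 promoters of this length. The CArG box, the motif of serum response factor in muscle genes, was found in 2 (Itgb6 and Lama2), and in 1.47% of all. The motifs do not overlap each other. Capitals mark the match, which lay 158 bases before the start in Itga4 and 29 in Lama2, while Itga10 had no match to either in this window. The windows are chr2:79255176-79255425 (plus strand) for Itga4, chr3:96645334-96645583 (plus strand) for Itga10 and chr10:27616943-27617192 (minus strand) for Lama2.
Itga4 promoter: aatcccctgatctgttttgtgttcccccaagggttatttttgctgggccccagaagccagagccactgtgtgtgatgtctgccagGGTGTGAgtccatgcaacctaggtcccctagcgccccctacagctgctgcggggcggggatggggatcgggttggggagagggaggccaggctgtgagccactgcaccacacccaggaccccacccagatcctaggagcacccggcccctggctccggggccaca
Itga10 promoter: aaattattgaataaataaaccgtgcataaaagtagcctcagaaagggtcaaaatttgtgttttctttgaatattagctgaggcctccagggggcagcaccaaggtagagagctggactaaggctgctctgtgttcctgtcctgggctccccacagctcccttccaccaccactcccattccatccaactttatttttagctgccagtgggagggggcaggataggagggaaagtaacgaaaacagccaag
Lama2 promoter: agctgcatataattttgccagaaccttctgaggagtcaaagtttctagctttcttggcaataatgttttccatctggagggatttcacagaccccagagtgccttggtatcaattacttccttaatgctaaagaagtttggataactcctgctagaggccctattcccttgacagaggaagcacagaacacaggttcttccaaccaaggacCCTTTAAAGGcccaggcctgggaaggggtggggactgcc
These letters are matches to a pattern, and no binding was measured here.

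Some partners of laminins in the basement membrane were higher. Of 24 measured, 5 were called higher and 0 lower, with a median of 0.39 (male 0.44, female 0.32) and 14 at an unadjusted p under 0.05. Over all genes tested, 2.18% were called higher, 2.27% lower, and 16% had an unadjusted p under 0.05. The partner and marker lists were chosen with earlier results of these data known, so their counts are descriptions and not tests. The 5 were Nid2 (nidogen 2, which links laminin to collagen IV, 0.83 and 0.68, mean 0.76 ± 0.11), Col18a1 (the collagen from which endostatin is cut, 0.89 and 0.41, mean 0.65 ± 0.34), Bcam (a receptor for laminin alpha5, 0.82 and 0.52, mean 0.67 ± 0.21), Frem1 (part of the Fraser complex beneath epithelia, 0.74 and 1.38, mean 1.06 ± 0.45) and Smoc1 (a calcium-binding matrix protein, 0.98 and 0.84, mean 0.91 ± 0.10). The chains of collagen IV were not called, with Col4a1 at 0.14 and 0.27 and Col4a2 at 0.44 and 0.22. Npnt (nephronectin, the ligand of alpha8) read -0.35 and -0.12, a mean of -0.24 ± 0.16, and was not called.

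Integrin ligands outside the basement membrane showed the same count, 5 of 20 called higher and 0 lower (all genes 2.18% and 2.27%). Their median was 0.52 (male 0.57, female 0.37). Fn1 (fibronectin, the ligand of alpha5 and alpha4) read 184775 against 71532 in the male and 180904 against 100737 in the female RNAs, a mean of 1.11 ± 0.37 (limma adjusted p = 0.00121). Vcam1, the cellular ligand of alpha4, was 25046 against 16624 and 35888 against 11799, a mean of 1.10 ± 0.72 (limma adjusted p = 0.00507). Madcam1, the ligand of alpha4 with beta7, read -0.18 and -0.25 and was not called. Spp1, another integrin ligand of the list, read 1.04 and -0.77 and was not called either. Col1a1, Col1a2 and Col3a1, the fibrillar collagens bound by alpha1, alpha10 and alpha11, were called as well. Col1a1 read 1.87 and 0.67 (mean 1.27 ± 0.85), Col1a2 read 1.45 and 0.99 (mean 1.22 ± 0.33), and Col3a1 read 0.96 and 0.37 (mean 0.66 ± 0.41). They also belong to the list of fibroblast markers, of which 7 of 10 were called higher (median 0.76, male 0.75, female 0.78), 0 lower. The summed intensity of that list was 1603668 and 1690287 in the cDKO RNAs against 821692 and 1003549 in the controls, and its part in the ligand counts was not tested.

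Inside the cell, proteins that tie integrins to actin went both ways. Of 26 measured, 2 were called higher and 4 lower (all genes 2.18% and 2.27%), with a median of 0.08 (male 0.18, female 0.0048). The lower ones were Fermt2 (kindlin-2, an integrin activator, -1.19 and -0.54, mean -0.87 ± 0.46), Lims1 (PINCH1 of the ILK complex, -1.16 and -0.38, mean -0.77 ± 0.55), Vcl (vinculin, which reinforces adhesions, -1.06 and -0.68, mean -0.87 ± 0.27) and Flna (filamin A, an actin crosslinker that binds beta tails, -0.45 and -0.93, mean -0.69 ± 0.34). Higher were Fermt1 (kindlin-1 of epithelia, 0.87 and 0.66, mean 0.76 ± 0.15) and Tns3 (tensin 3, 0.70 and 0.69, mean 0.70 ± 0.0061). Talin and ILK themselves were not called: Tln1 read 0.19 and 0.04, and Ilk read -0.0013 and -0.10. In the hemidesmosome list, 1 of 6 was called lower (all genes 2.27%). It was Krt14 (a basal keratin), at -0.55 and -0.87 with a mean of -0.71 ± 0.22. Krt5, its usual partner, read 0.65 and 0.51 with a mean of 0.58 ± 0.10 and was not called (limma adjusted p = 0.0624).

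**Figure D4:**
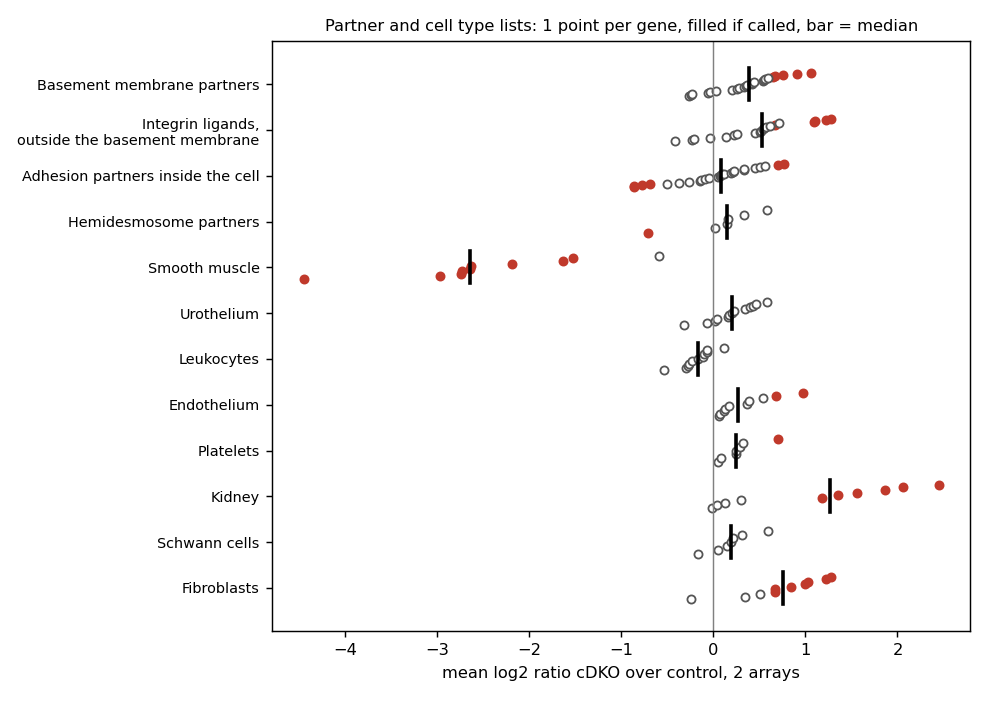
Mean log2 ratio of labelled cDKO over control (x axis) for each gene of the partner and marker lists (y axis), with filled points called by limma and a bar at each list's median. Smooth muscle markers sit to the left with a median of -2.64, and kidney markers spread from -0.02 to 2.45 with a median of 1.27.

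Smooth muscle markers were lower, as were some integrin and adhesion genes. Of 10 markers, 9 were called lower (all genes 2.27%) and 0 higher, Smtn being the exception at -0.62 and -0.57. Their median was -2.64 (male -2.55, female -2.68). Their summed intensity was 308430 and 239655 in the male and female cDKO RNAs, against 1565793 and 1266475 in the controls. No smooth muscle marker was below background. Members described above as muscle genes went both ways. Itga1 (-1.03 and -0.26) and Itgb1bp2 (-0.48 and -0.56) were below 0 on both arrays. Itga7 (0.16 and 0.04) and Lama2 (0.47 and 0.64) were above it, and Itga8 (-0.24 and 0.49) differed in sign. The part of smooth muscle in the lower values of Itga10, Itga4, Itga1 and Lamc3 was not tested.

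Leukocyte markers bear on Itga4 and the beta2 and beta7 subunits. Of 13, 11 were tested and 0 were called by limma, with 1 at an unadjusted p under 0.05 (all genes 16%). The median of these markers was -0.16 (male -0.04, female -0.35). Their summed intensity was 94760 and 83205 in the cDKO RNAs against 101217 and 103795 in the controls. Urothelial markers bear on Lama3, Lamb3 and Itgb4, and 0 of 13 were called by limma. At an unadjusted p under 0.05 there were 4 (all genes 16%), and the median was 0.20 (male 0.32, female 0.07). Endothelial markers had 2 of 10 called higher (Cdh5 and Plvap, male median 0.40, female median 0.28), against 2.18% of all genes. Of 7 platelet markers tested, 1 was called higher (Ppbp, 0.91 and 0.50), against 2.18% of all genes, and Gp5 was below background in all 4 RNAs. Schwann cell markers had 0 of 7 tested called by limma, with 1 at an unadjusted p under 0.05 (all genes 16%). All 13 urothelial and all 10 smooth muscle markers were well above background in all 4 RNAs. Most markers of the other lists were too, so this cannot check the tissue label.

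**Figure D5:**
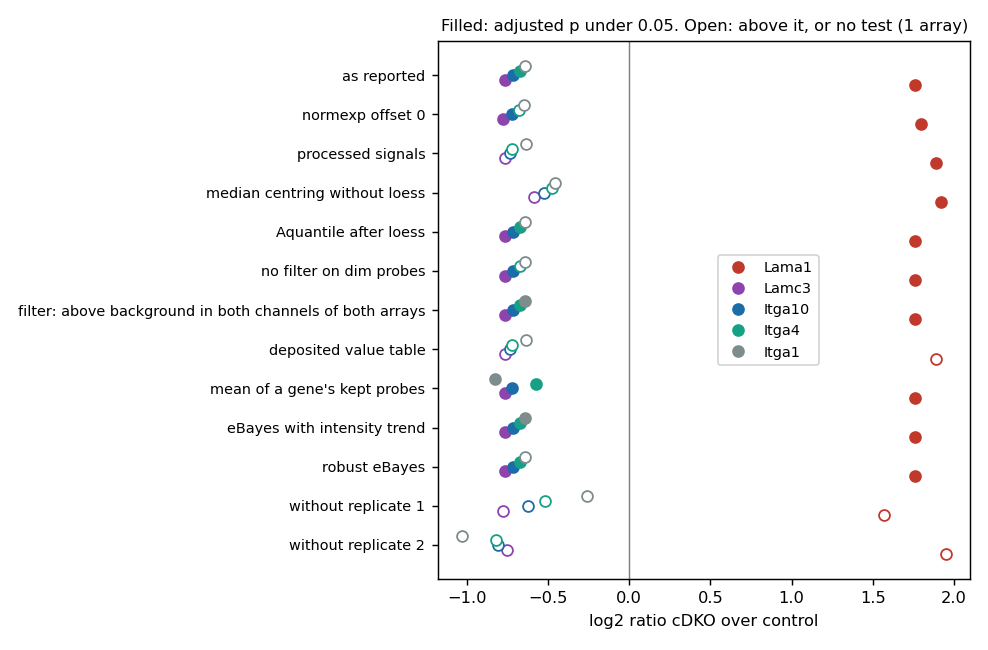
Mean log2 ratio of labelled cDKO over control (x axis) of 5 members, 1 colour each, under each processing setting (y axis), with filled points where limma's adjusted p is under 0.05 and open points above it or where 1 array alone gives no test. Lama1 stays between 1.76 and 1.92 where both arrays are used, whereas Lamc3, Itga10, Itga4 and Itga1 stay left of 0 and change between filled and open.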

How the data were processed

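Intensities were measured per spot in both dyes on 2 arrays. Per the file headers, the deposited scanner files hold intensity (mean, background and processed signals), the flags for background and saturation, and a log10 ratio of red over green. They were made with Agilent Feature Extraction 10.7.3.1, per the submitters' processing notes, and probe coordinates are in mm9. The deposited value table holds a score, the signed fold of the processed signals oriented as cDKO over control. It matched the log2 processed ratio within 0.001 for 100% of 25106 and 24222 bright spots. For these spots its scale and direction are those of the processed signals, and dimmer spots were not compared. Its column medians are 1 and 1, but 11933 and 11692 of its entries are exactly 1, so the medians cannot show its centring.

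Mean and background signals were corrected with normexp (offset 50) and then dye-normalised with loess array by array, leaving out control spots and outlier flags (limma 3.58.1 in R 4.3.3). Ratios were oriented as cDKO over control. Probes well above background in the same RNA on both arrays and measured on both were kept, 29274 of 39429. Whether the ratio averaged over both arrays differed from 0 was tested with limma's moderated test, two-sided, with Benjamini-Hochberg adjustment over these probes and a threshold of 0.05. With 1 residual degree of freedom, the spread rests mostly on the variance pooled over probes (prior degrees of freedom 13.9). Each gene is read by its brightest probe. The procedure was tested on simulated data.

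Named genes are all members, described in full when called, at least 2-fold on either array or bright, and genes of 4 partner and 8 marker lists. The members and the lists were chosen with earlier results of these data known. Values of some genes are not reported here, though the counts and medians include them. RefSeq symbols were matched for 39 members by accession. The 12 alternatives covered background correction, normalisation, the filter, the deposited table, the choice of probe, the variance model and each array alone.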

Additional observations from a re-analysis of the deposited data

Results flagged for a closer look

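For 12 of the 34 tested genes the brightest probe gave ratios of opposite sign on the male and the female array, and for all genes tested that share was 40.3%. The other probe of Itgb1 and of Itgb6 was below 0 on both arrays, while that of Itgav and of Itgal again differed in sign. The differences, male minus female on the log2 scale, were 0.54 for Itga3, 0.77 for Itga5, -0.29 for Itga6, -0.73 for Itga8, -0.31 for Itgal and -1.07 for Itgav among the alpha subunits. Among the beta subunits they were -0.68 for Itgb1, 0.40 for Itgb2, 0.27 for Itgb4 and -0.44 for Itgb6, and among the laminin chains -0.33 for Lama4 and -0.062 for Lama5. None of these differences was tested, since each sex has 1 array, and sex, dye orientation and replicate cannot be told apart. No called gene is among them, but the calls rest on the mean of the same ratios, so this is not separate evidence.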

How the results depend on the processing

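Lama1 kept its direction in all 12 alternatives and its call in 9 of the 10 that have a test. Lamc3 and Itga10 kept theirs in 7 of 10 and Itga4 in 5 of 10, and none of these 4 changed sign. Members called higher numbered 1 as reported, 0 with the deposited value table and 2 with an intensity trend in the variance. Members called lower numbered 3 as reported, 0 each with processed signals, median centring and the deposited table, 2 each with a normexp offset of 0 and no filter, and 4 each with the filter on both channels, the mean of kept probes and the intensity trend, which add Itga1. In that table limma called 0 genes higher and 0 lower, with 2431 genes and 7 members at an unadjusted p under 0.05. Over all genes, calls higher and lower were 510 and 530 as reported, 134 and 210 with processed signals, 163 and 157 with median centring, and 931 and 663 with the intensity trend. With 1 array left out there is no test, and the count of members at least 2-fold lower lay between 0 and 1, the 1 being Itga1 on the male array. The reported ratios are already paired within each array, and no further paired analysis was possible because there is no other group whose replicate numbers could be matched. With 2 arrays the number of arrays limits the precision, and 7 of 41 members were too dim to test.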
